A study of Mus musculus with 4 samples.

Results

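The steroid-converting reductase genes of the Akr1c and Hsd3b families were described in liver and white adipose tissue (WAT) of Pnpla7-/- mice and wild-type mice. Members were the genes Akr1c6, Akr1c12, Akr1c13, Akr1c14, Akr1c18, Akr1c20, Hsd3b2, Hsd3b3, Hsd3b5 and Hsd3b7, found by the gene name that the array's own annotation gives each probe. They had 12 probes of 39429 probes that were not controls. Akr1c20 and Hsd3b2 had 2 probes each, the other members 1, and every one of them was printed as 1 spot. The 4 groups were labelled-knockout (Pnpla7-/-) liver, wild-type liver, labelled-knockout WAT and wild-type WAT, all from C57BL/6N mice aged 4 weeks. Each group was a single one-colour Agilent array, hybridised with RNA pooled from 5 animals. No difference therefore has a replicate check, and the differences are described without tests or p-values. Neither the sex of the animals, the fat depot nor the part of Pnpla7 that was removed is given in the sources used here, and the labels' extraction text names livers as the RNA source for all 4 samples.

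Aldo-keto reductases of the AKR1C type use NADPH or NADH to reduce or oxidise hydroxyl and keto groups of steroids, prostaglandins and foreign carbonyl compounds. The 3-beta-hydroxysteroid dehydrogenases of the HSD3B type are a separate protein family, whose classical members turn delta-5 steroids into delta-4 steroids. In rodents both families were duplicated into gene clusters, and the liver uses them mainly to inactivate hormones and to build bile acids. Hsd3b5 is known in mice as a liver gene with much higher expression in males.

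Because the members are close relatives, the probe sequences were compared with each other. Full transcripts of the relatives were not searched. Probes at different places of their transcripts can share little even where the genes are alike. Whether a probe also binds the RNA of a relative was therefore not tested. Hsd3b5 and the non-member Hsd3b4 had the longest run in common, 23 identical bases (in capitals), among 150 pairs of a member probe with another member or another probe of the 2 clusters. Hsd3b3 and the second Hsd3b2 probe shared 16 bases (in capitals). Over their whole overlap without gaps, Hsd3b5 and Hsd3b4 matched in 42 of 53 bases. Hsd3b3 and the second Hsd3b2 probe matched in only 22 of 59. The Hsd3b3 probe was closer by this measure to the non-members Hsd3b1 (39 of 57) and Hsd3b4 (37 of 51). The 4 sequences are shown 5′ to 3′ as in the scanner files.
Hsd3b5: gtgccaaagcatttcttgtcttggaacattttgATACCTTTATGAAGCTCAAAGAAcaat
Hsd3b4: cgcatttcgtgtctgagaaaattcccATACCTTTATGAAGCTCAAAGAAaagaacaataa
Hsd3b3: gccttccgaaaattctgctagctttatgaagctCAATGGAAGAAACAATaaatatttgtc
Hsd3b2 (second probe): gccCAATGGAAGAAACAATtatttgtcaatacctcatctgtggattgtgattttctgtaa

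On the mm9 build used by the files, these probes lie on chromosome 3 on the minus strand: Hsd3b5 at chr3:98422576-98422635, the second Hsd3b2 probe at chr3:98515054-98515113 and Hsd3b3 at chr3:98545455-98545514. They begin at bases 1530, 1716 and 1653 of their transcripts. No gene model of mm9 was used here, so exon and UTR status is not given. The first Hsd3b2 probe lies at chr3:98515703-98515762, and Hsd3b7 stands apart on chromosome 7, at chr7:134947251-134947310. In 4 of the 150 pairs the longest shared run had 12 or more bases, and the median over all pairs was 6.

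The Akr1c probes lie within a stretch of 503 kb on chromosome 13, together with Akr1c19, Akr1c21 and Akr1e1. Along the chromosome they run in the order Akr1c14, Akr1c18, Akr1c13, Akr1c19, Akr1c12, Akr1c6, Akr1c20, Akr1c21 and Akr1e1. Akr1c18 (chr13:4131895-4131954, minus strand) is shown for its opposite directions in the tissues. The 2 probes of Akr1c20 (chr13:4506828-4506887 and chr13:4486408-4486467, both minus strand) are shown because they differed in level and ratio. They carry different accessions, a RefSeq transcript and a cDNA clone.
Akr1c18: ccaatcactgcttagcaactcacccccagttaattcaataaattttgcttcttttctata
Akr1c20 (first probe): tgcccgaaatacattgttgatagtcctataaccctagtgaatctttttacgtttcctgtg
Akr1c20 (second probe): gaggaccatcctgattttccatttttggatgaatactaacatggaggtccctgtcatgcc

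The arrays were checked before the members were read. The probe of Pnpla7 was at 7.98 times the array's 75th percentile in labelled-knockout liver and 9.04 times in wild-type liver. In WAT it was at 0.372 times in the labelled knockout and 0.739 times in wild type. All log2 levels below are on the same scale, with 0 at the 75th percentile. That probe may lie outside the removed part, so the genotype rests on the labels. Between 65.5% and 72.6% of spots were well above background by the scanner software's flag, and 0 were saturated. All 10 hepatocyte markers, and all 10 adipocyte markers in WAT, were well above background on the arrays of their tissue. Of 7 probes for 6 Y-linked genes, 0 were well above background on any array. Errors given after ± are the scanner software's model error of a log2 ratio, between 0.204 and 0.235 for the members measured. For bright probes this error is set by the model's multiplicative term of 0.1 and is not a spread seen in these data. The SD of ratios over repeat spots had a median of 0.0439 in liver and 0.0477 in WAT. The pooled SD over different probes of 1 gene was 0.197 in liver and 0.231 in WAT. None of these covers the variation between animals.

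All 12 member probes were well above background on both liver arrays. In WAT 7 were so on the labelled-knockout array and 8 on the wild-type array. Hsd3b5, both Hsd3b2 probes and the first Akr1c20 probe were not well above background on either WAT array, while Hsd3b3 was so on the wild-type one alone.

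**Figure D1:**
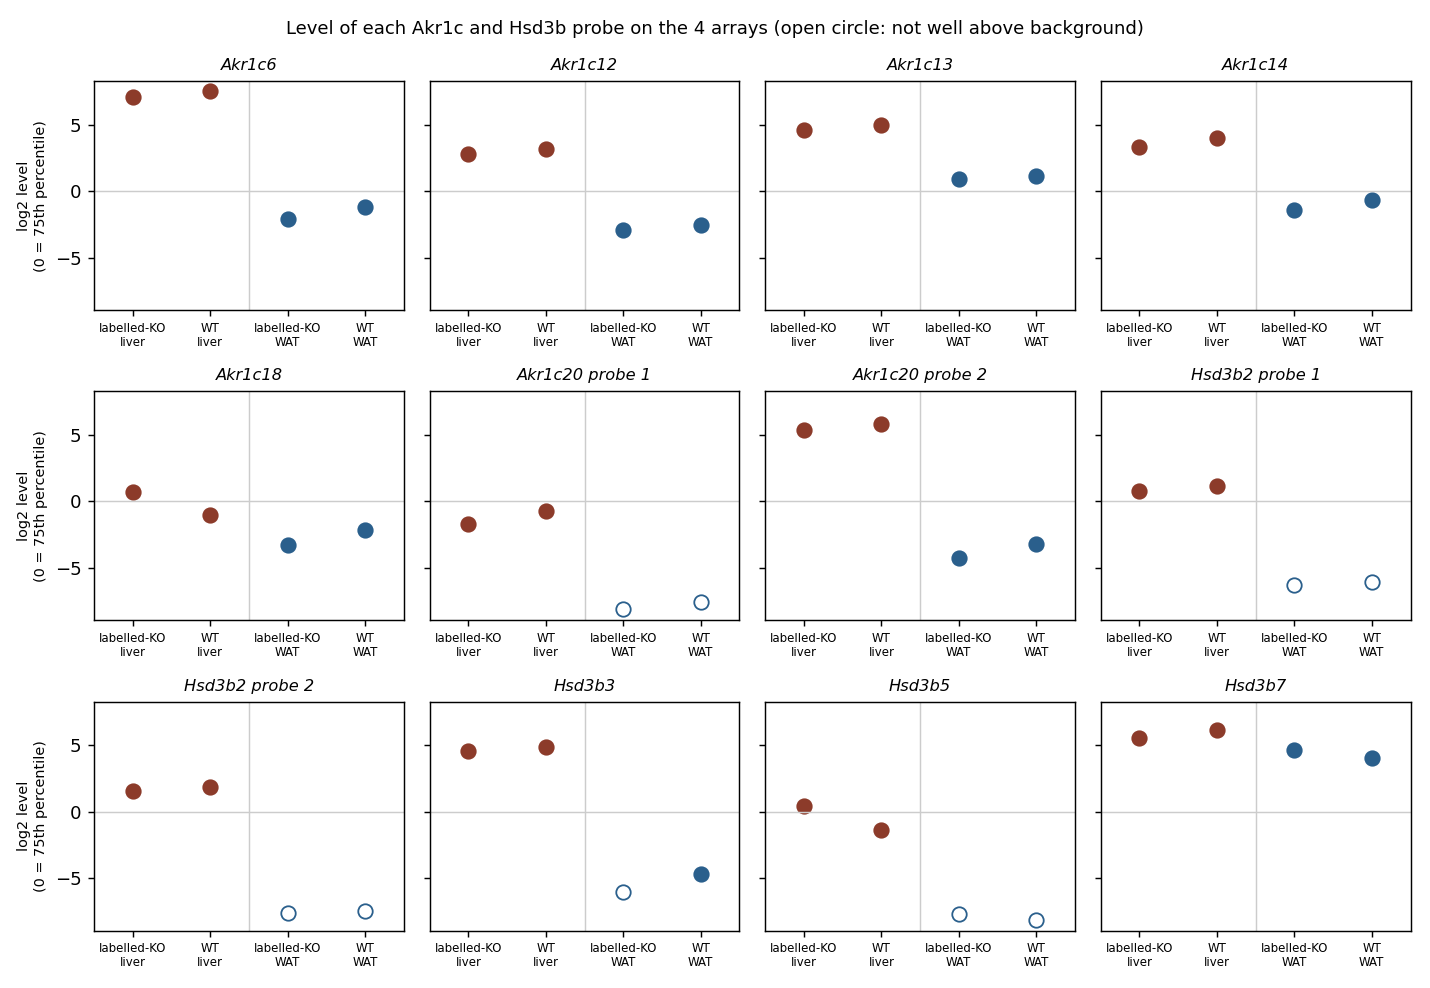
Level of each member probe on the 4 arrays, as log2 of the processed signal relative to the array's 75th percentile (y axis), with labelled-knockout left of wild type (WT) in liver (red) and WAT (blue). Filled circles are well above background and open circles are not, and 0 of the 12 probes had a higher level in WAT than in liver of the same genotype.

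In the labelled-knockout liver, Hsd3b5 and Akr1c18 were more than 3-fold higher than in wild type, while the other 10 probes, for 8 genes, were all lower by less than 2-fold. Hsd3b5 encodes an enzyme that, in mice, acts as an NADPH-dependent reductase of 3-keto steroids such as dihydrotestosterone. Its processed signal was 2310 in labelled-knockout liver and 567 in wild-type liver, or 1.31 and 0.386 times each array's 75th percentile. The log2 ratio was 1.76 ± 0.20, a 3.40-fold difference. This ratio ranked 81st from the top among 25128 probes measured in liver.

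Akr1c18 encodes the 20-alpha-hydroxysteroid dehydrogenase that inactivates progesterone, known from the mouse ovary at the end of pregnancy. Its signal was 2813 in labelled-knockout liver and 733 in wild-type liver, or 1.59 and 0.499 times the 75th percentile. The log2 ratio was 1.68 ± 0.20, a 3.20-fold difference, ranked 94th from the top. In both cases the liver ratio was far larger than the model error, which leaves out the variation between animals.

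Of the members, 2 of 12 probes (16.7%) reached 2-fold upwards, against 1.42% of all probes measured in liver. Downwards 0 of 12 did, against 0.860% of all. The median log2 ratio was -0.39 over the members and -0.04 over all probes. With so few probes these counts describe the members and say nothing beyond them.

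The other Akr1c genes were modestly lower. Akr1c6, a mouse 17-beta-hydroxysteroid dehydrogenase of liver, was at a log2 level of 7.05 in labelled-knockout liver and 7.48 in wild-type liver, a ratio of -0.43 ± 0.20. Akr1c14, the mouse 3-alpha-hydroxysteroid dehydrogenase, was at 3.29 in labelled-knockout liver and 3.95 in wild-type liver, a ratio of -0.66 ± 0.20. Akr1c12 was at 2.80 in labelled-knockout liver and 3.16 in wild-type liver, and Akr1c13 was at 4.62 in labelled-knockout liver and 4.95 in wild-type liver. Their ratios of -0.36 and -0.34 differed by less than the error of either.

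The 2 probes of Akr1c20 both read lower, to different degrees. The first was at -1.74 in labelled-knockout liver and -0.75 in wild-type liver, a ratio of -0.99 ± 0.20, just short of 2-fold. The second was at 5.36 in labelled-knockout liver and 5.84 in wild-type liver, with a ratio of -0.48 ± 0.20. The difference between them exceeds the pooled SD of 0.197 between probes of a gene.

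The Hsd3b members other than Hsd3b5 were lower by small amounts. Hsd3b7 encodes the enzyme that oxidises the sterol 3-beta-hydroxyl group early in bile acid synthesis. It was at 5.56 in labelled-knockout liver and 6.13 in wild-type liver, a ratio of -0.57 ± 0.20. Hsd3b3 had a ratio of -0.32, and the first and second Hsd3b2 probes had ratios of -0.41 and -0.29. Hsd3b2 and Hsd3b3 are classical members of the family, which take part in making delta-4 steroids.

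The brightest liver probes as a whole leaned the same way. Of 2047 probes with a mean level above 4, 82.3% had a ratio below 0, with a median of -0.14. This band holds Akr1c6, Akr1c13, the second Akr1c20 probe, Hsd3b3 and Hsd3b7. The lean was smaller in the bands of the other lower probes. The median was -0.07 with 63.9% below 0 for levels of 2 to 4 (Akr1c12 and Akr1c14), and -0.04 with 56.8% for 0 to 2 (both Hsd3b2 probes). For levels of -2 to 0 (the first Akr1c20 probe) it was -0.02 with 53.6% below 0. Hepatocyte markers had a median of -0.25, with 12 of 13 probes below 0 and Alb at -0.28. Their part in the members' values was not tested. With quantile normalization Akr1c6 was at -0.15, Hsd3b3 at -0.16 and Hsd3b7 at -0.33, and the 10 probes were still below 0. Hsd3b5 and Akr1c18 kept ratios between 1.54 and 1.83, and between 1.45 and 1.74, under all settings that gave them a value.

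**Figure D2:**
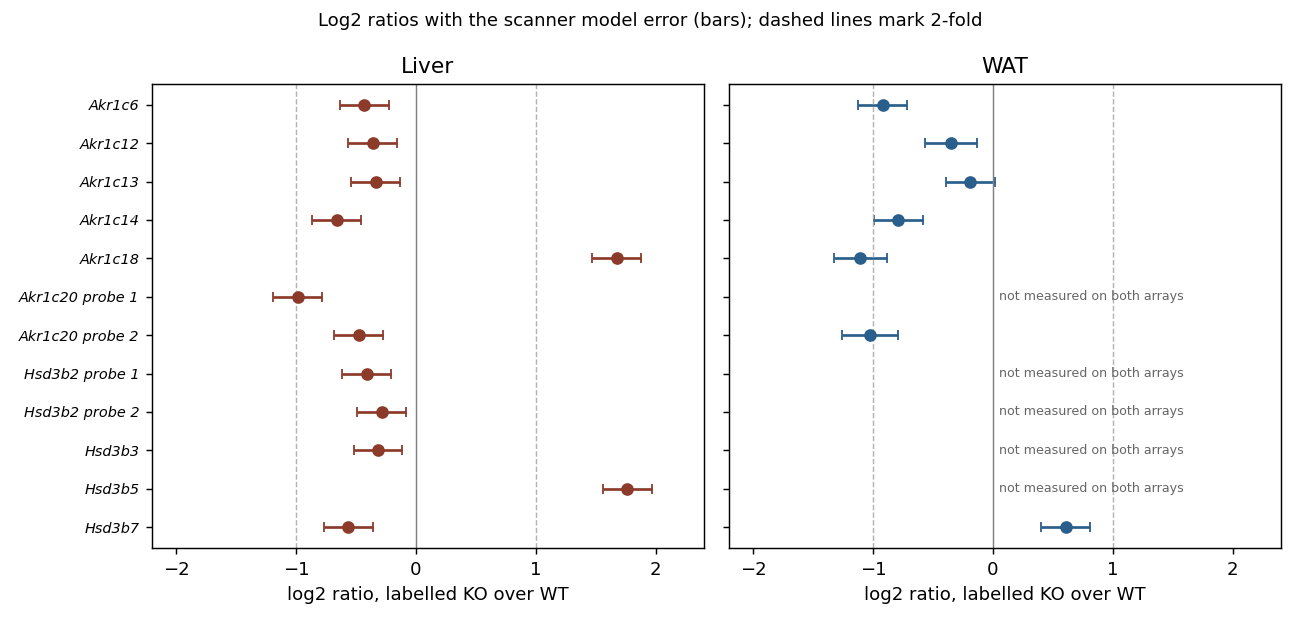
Log2 ratio of labelled knockout over wild type for each member probe (x axis) in liver (red) and WAT (blue), with bars for the scanner software's model error. In liver Hsd3b5 (1.76) and Akr1c18 (1.68) lie beyond the dashed 2-fold line, and in WAT Akr1c18 (-1.11) and the second Akr1c20 probe (-1.03) lie beyond it on the other side.

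Within the gene clusters, Akr1c18 stood between lower neighbours, and Hsd3b5 had lower neighbours on the side where they could be measured. Akr1c18 lies between Akr1c14 (-0.66) and Akr1c13 (-0.34) in the order along chromosome 13. On chromosome 3, Hsd3b5 is followed by Hsd3b2 (-0.29 and -0.41), Hsd3b3 (-0.32), Hsd3b6 (-0.49) and Hsd3b1 (-0.27). On its other side lies Hsd3b4, whose probe with the shared 23 bases was at -5.54 in labelled-knockout liver, just well above background, and at -7.18 in wild-type liver, where it was not. The other Hsd3b4 probe, at -6.36 in labelled-knockout liver and -6.01 in wild-type liver, was not well above background on either. Whether Hsd3b5 RNA contributes to the first of these Hsd3b4 signals was not tested.

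Hsd3b5 is a male-biased gene, so lists of sex-biased liver genes were read on the same arrays, where 1.42% of all probes reached 2-fold upwards and 0.860% downwards. Of 27 measured probes of a male-biased list without the members, 5 reached 2-fold upwards and 0 downwards, and the median was 0.29. The members on that list, left out of these counts, went opposite ways. They were Hsd3b5 (1.76) and Hsd3b2 (-0.41 and -0.29 for its first and second probe). The list was mixed, with 18 probes above 0 and 9 below. The transporter Slco1a1 had a ratio of 2.26 and the fatty acid hydroxylases Cyp4a12b and Cyp4a12a had ratios of 1.74 and 1.17, while Cyp7b1, an oxysterol hydroxylase on the same list, was at -0.64. Of 28 probes of a female-biased list, 16 reached 2-fold downwards and 0 upwards, and the median was -1.10. Cyp2b13 (-4.12) and A1bg (-3.78) were the lowest of these. The Y-linked probes above were not well above background in either liver pool. The part of hormone state in the Hsd3b5 value was not tested.

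In labelled-knockout WAT, all 6 measured Akr1c probes were lower than in wild-type WAT and Hsd3b7 was higher. Akr1c18 and the second Akr1c20 probe were at least 2-fold lower, 2 of 7 member probes measured on both arrays (28.6%), against 1.76% of the 26210 probes measured in WAT. At least 2-fold higher were 0 of 7, against 1.95% of all probes. The median was -0.79 over these 7 probes and 0.03 over all probes. A probe had to be well above background on both arrays to be counted, so the other 5 member probes do not enter these numbers.

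Akr1c18 had a signal of 168 in labelled-knockout WAT and 380 in wild-type WAT, or 0.104 and 0.225 times the 75th percentile. The log2 ratio was -1.11 ± 0.22, a 2.16-fold difference. The second Akr1c20 probe had a signal of 85.1 in labelled-knockout WAT and 182 in wild-type WAT, with a ratio of -1.03 ± 0.24. With normexp background correction and an offset of 50 these ratios were -0.84 and -0.53, and neither reached 2-fold. Normexp with an offset of 0 left Akr1c20 at -0.70.

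Akr1c6 was at -2.10 in labelled-knockout WAT and -1.18 in wild-type WAT, a ratio of -0.92 ± 0.21. Akr1c14 was at -1.45 in labelled-knockout WAT and -0.66 in wild-type WAT, a ratio of -0.79 ± 0.20. Akr1c12 (-0.35) differed little, and Akr1c13 (-0.19) by less than its model error. Hsd3b3 was well above background in wild-type WAT alone, where it was at least 2.16-fold above labelled-knockout WAT. The bound takes, for labelled-knockout WAT, whichever is higher of the lowest detected signal on that array and the probe's own reading.

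Hsd3b7 went the other way. Its signal was 39899 in labelled-knockout WAT and 27407 in wild-type WAT, a log2 ratio of 0.61 ± 0.20 or 1.52-fold. Bright probes in WAT also tended upwards: the 1598 probes with a mean level above 4 had a median of 0.16, and 19.1% of them were below 0.

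Transcripts of other tissues differed between the WAT pools, and several of them are made in the liver. All 10 hepatocyte markers were well above background on both WAT arrays. Their measured probes had a median ratio of -0.70, with Ttr at -1.62, Alb at -1.58, Fgb at -1.28 and Serpina1a at -1.17, while Cyp2e1 and Trf were higher at 0.97 and 0.28. The summed level of the list was 230 times the 75th percentile in labelled-knockout WAT and 166 times in wild-type WAT. Cyp2e1 and Trf made up most of this sum. Cyp2e1 had a mean log2 level of 6.86 in labelled-knockout WAT and 5.89 in wild-type WAT, and Trf 6.57 and 6.30. All the other markers were lower in the labelled knockout. Alb, the brightest of them, was at 3.37 times the 75th percentile in labelled-knockout WAT and 10.1 times in wild-type WAT. The part of liver RNA in the Akr1c ratios was not tested. RNA from liver and RNA made in fat cannot be told apart in such a pool, nor can fewer cells of a type and less RNA per cell.

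Other marker lists moved too. Skeletal muscle markers summed to 58.8 in labelled-knockout WAT and 8.60 in wild-type WAT, with 10 of 10 well above background on both. Epithelial markers summed to 8.81 in labelled-knockout WAT, with 9 of 10 well above background, and to 2.50 in wild-type WAT, with 7 of 10. Macrophage markers summed to 6.78 and 12.4 in the same order, with 9 and 10 of 10. Adipocyte markers summed to 1131 in labelled-knockout WAT and 1003 in wild-type WAT. Markers of steroid-making glands summed to 5.46 on both WAT arrays, with 8 of 13 well above background. Mc2r and Cyp17a1 made up most of this sum. Mc2r had a log2 level of 1.85 in labelled-knockout WAT and 1.77 in wild-type WAT, and Cyp17a1 0.43 and 0.67. Of the 9 probes of this list measured in WAT, 4 had a ratio above 0 and 5 below. Cyp11a1, which starts steroid synthesis in such glands, was not well above background on any of the 4 arrays, nor were Lhcgr and Fshr. The part of these lists in the Akr1c and Hsd3b values was not tested.

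**Figure D3:**
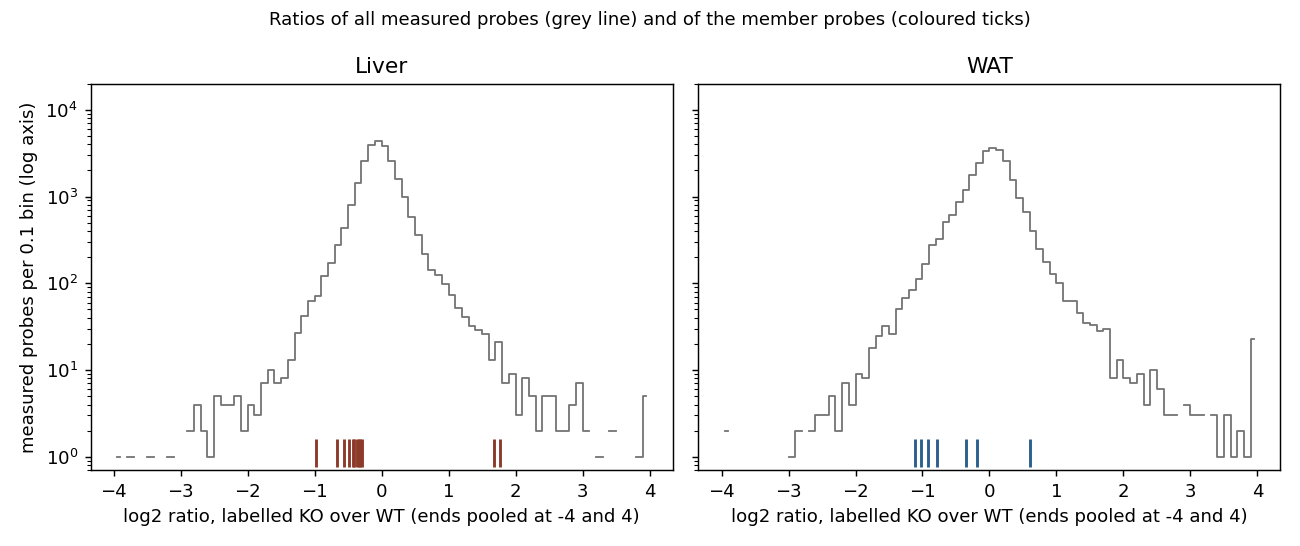
Number of measured probes per bin of 0.1 (grey line, log y axis) by log2 ratio of labelled knockout over wild type (x axis) in liver and WAT, with the member probes as coloured ticks. In liver 10 ticks lie between -0.99 and -0.29 and 2 lie at 1.68 and 1.76, and in WAT 6 of 7 ticks lie below 0.

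Akr1c18 and Hsd3b7 had ratios of opposite sign in the tissues. For Akr1c18 the liver ratio exceeded the WAT ratio by 2.78 on the log2 scale, ranked 32nd from the top among 23855 probes measured in both tissues. It was 1 of 12 probes, or 0.0503%, that were at least 2-fold higher in labelled-knockout liver and at least 2-fold lower in labelled-knockout WAT. For Hsd3b7 the liver ratio was below the WAT ratio, by -1.17. The other members measured in both tissues differed between them by at most 0.55. The difference between tissues was not tested, as each ratio rests on 1 pair of arrays.

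Between tissues, nearly all members were far higher in liver. In the labelled knockout, 6 of 7 member probes measured on both arrays had at least 2-fold more signal in liver, against 12.1% of all probes. In wild type 8 of 8 did, against 14.0% of all probes. The exception was Hsd3b7 in the labelled knockout, 1.91-fold higher in liver, while in wild type it was 4.32-fold higher.

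The level of the second Akr1c20 probe in liver was 781-fold that in WAT in the labelled knockout, and 534-fold in wild type. Akr1c6 was 568-fold higher in the labelled knockout and 404-fold higher in wild type. Akr1c12 (53.3-fold and 53.8-fold), Akr1c14 (26.7-fold and 24.5-fold) and Akr1c13 (12.8-fold and 14.2-fold), each given for the labelled knockout and then for wild type, kept nearly the same gap in both genotypes. Akr1c18 did not, at 15.3-fold in the labelled knockout and 2.22-fold in wild type.

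Members below background in WAT have only a bound. Hsd3b3 was at least 1265-fold higher in liver than in WAT of the labelled knockout, and 729-fold higher in wild type, where both arrays measured it. The first Hsd3b2 probe was at least 91.8-fold higher in liver of the labelled knockout and at least 147-fold in wild type. The second Hsd3b2 probe was at least 162-fold higher in liver of the labelled knockout and at least 285-fold in wild type. The first Akr1c20 probe had lower bounds, 16.4-fold in the labelled knockout and 46.9-fold in wild type. For Hsd3b5 the bounds were 71.6-fold in the labelled knockout and 30.5-fold in wild type.

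Seen as a share of the liver level, WAT separated the members further. In labelled-knockout WAT, Akr1c6 reached 0.176% of the liver level and the second Akr1c20 probe 0.128%. In wild-type WAT these shares were 0.247% and 0.187%. The 13 hepatocyte marker probes spanned shares from 0.133% (Cps1) to 82.6% (Cyp2e1) in the labelled knockout, and from 0.176% (Cps1) to 46.5% (Trf) in wild type. Only the probes of Cyp2e1 and Trf made the upper end, at 36.9% or more in the labelled knockout and 24.2% or more in wild type. All other marker probes were at most at 1.86% in the labelled knockout and 3.48% in wild type. Hnf4a, next above Cps1, was at 0.151% in the labelled knockout and 0.247% in wild type. Akr1c13 was at 7.82% in labelled-knockout WAT and 7.06% in wild-type WAT, and Akr1c14 at 3.74% and 4.08% in the same order. Akr1c18 was at 6.54% in labelled-knockout WAT and 45.1% in wild-type WAT. Hsd3b7 was at 52.3% in labelled-knockout WAT and 23.2% in wild-type WAT.

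The other Akr and Hsd3b genes measured in liver differed by less than 2-fold between genotypes. Of 13 measured probes in liver, 0 reached 2-fold, with a median of -0.10. Of all liver probes, 1.42% reached 2-fold upwards and 0.860% downwards. Akr1d1, the steroid 5-beta-reductase of bile acid synthesis, was at 0.59 in labelled-knockout liver and 1.48 in wild-type liver, a ratio of -0.90. Akr1b7, an aldose reductase-like protein, had a ratio of 0.87 in liver. Akr1c19 (-0.28) and Akr1e1 (-0.33) of the Akr1c cluster, and Hsd3b1 (-0.27) and Hsd3b6 (-0.49) of the Hsd3b cluster, were also lower. These ratios were close to those of members such as the second Hsd3b2 probe (-0.29), Akr1c12 (-0.36) and the second Akr1c20 probe (-0.48). Akr1a1 (-0.10), Akr7a5 (-0.15), Akr1b8 (0.09), Akr1b10 (0.16 and 0.24) and Akr1b3 (0.26 for both probes) lay closer to 0.

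In WAT 0 of 10 measured probes of that list were 2-fold lower, against 1.76% of all WAT probes. Upwards 1 reached 2-fold, against 1.95% of all, Akr1b7 at 1.20. It was dim, at -4.57 in labelled-knockout WAT and -5.77 in wild-type WAT. Akr1c19 was at 0.66, opposite in sign to the Akr1c members, and the others lay between -0.40 and 0.28. Akr1c21 and Akr1cl were not well above background on any array.

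Enzymes that share substrates with the members were read on the same arrays. In a list of other steroid-converting enzymes, 0 of 32 measured probes were 2-fold higher, against 1.42% of all liver probes. Downwards 2 reached 2-fold, against 0.860% of all, and the median was -0.06. These 2 were Sult2a1 (-2.14), a sulfotransferase of hydroxysteroids that is also on the female-biased list, and Rdh16 (-1.30). Hsd11b1, which reactivates glucocorticoids, was at -0.75 in liver and at 1.18 in WAT. In WAT 1 of 22 probes was 2-fold higher, against 1.95% of all WAT probes, and 2 were 2-fold lower, against 1.76%. The lower ones were the glucuronosyltransferases Ugt2b5 (-1.44) and Ugt2b38 (-1.32).

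Among bile acid enzymes beside Hsd3b7, 13 of 15 measured liver probes were below 0, against 57.1% of all liver probes, with a median of -0.24 that was close to the -0.25 of the hepatocyte markers. Downwards 1 reached 2-fold, against 0.860% of all probes: Cyp8b1 (-1.38), the sterol 12-alpha-hydroxylase. Cyp7b1 was at -0.64 and Slc27a5, the bile acyl-CoA synthetase, at -0.55. The 2 probes above 0 were those of Cyp39a1 (0.44) and Cyp7a1 (0.07), named after their values were seen. In WAT, 1 of 12 measured probes was 2-fold higher, Acox2 (1.08), against 1.95% of all WAT probes. Downwards 2 reached 2-fold, both of Slc27a5 (mean -1.66), against 1.76% of all, and the median was 0.19.

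The promoters of the pairs of different members with the most identical aligned columns are shown beside the ratios. Whether promoter likeness goes with the ratios was not tested. RefSeq windows of GRCm38.p6, from 250 bases before to 50 after the start, were matched for 9 of the 10 genes, with Akr1c20 not among them. Akr1c12 (chr13:4279350-4279649, minus strand) and Akr1c13 (chr13:4190937-4191236, plus strand) were identical in 284 of 297 aligned columns, or 95.6%. Their liver ratios were -0.36 and -0.34. Capitals mark the bases that differ or are inserted.
Akr1c12: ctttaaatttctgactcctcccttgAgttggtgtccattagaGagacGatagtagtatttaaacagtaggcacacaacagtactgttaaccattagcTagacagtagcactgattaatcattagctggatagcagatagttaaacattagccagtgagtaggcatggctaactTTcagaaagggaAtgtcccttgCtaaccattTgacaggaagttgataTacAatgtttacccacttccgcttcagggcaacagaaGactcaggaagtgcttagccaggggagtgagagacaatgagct
Akr1c13: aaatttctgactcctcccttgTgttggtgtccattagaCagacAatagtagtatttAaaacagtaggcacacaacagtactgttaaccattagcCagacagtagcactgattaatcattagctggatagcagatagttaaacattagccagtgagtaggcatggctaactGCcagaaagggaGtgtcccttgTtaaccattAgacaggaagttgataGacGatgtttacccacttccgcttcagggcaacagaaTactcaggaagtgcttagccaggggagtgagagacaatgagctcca

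Hsd3b5 (chr3:98645485-98645784, minus strand) and a start of Hsd3b3 (chr3:98762361-98762660, minus strand) were identical in 190 of 250 aligned columns, or 76.0%. Over the whole windows their identity was 51.3%, and that of Akr1c14 and Akr1c18 was 52.3%. The liver ratios of Hsd3b5 and Hsd3b3 were 1.76 and -0.32. Capitals mark runs of at least 12 identical bases in the alignment.
Hsd3b5: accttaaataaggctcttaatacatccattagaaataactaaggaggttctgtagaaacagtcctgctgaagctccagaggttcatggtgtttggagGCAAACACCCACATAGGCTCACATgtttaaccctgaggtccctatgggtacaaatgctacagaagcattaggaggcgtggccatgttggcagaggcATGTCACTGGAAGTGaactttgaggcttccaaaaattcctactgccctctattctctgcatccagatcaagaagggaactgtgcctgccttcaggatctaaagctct
Hsd3b3: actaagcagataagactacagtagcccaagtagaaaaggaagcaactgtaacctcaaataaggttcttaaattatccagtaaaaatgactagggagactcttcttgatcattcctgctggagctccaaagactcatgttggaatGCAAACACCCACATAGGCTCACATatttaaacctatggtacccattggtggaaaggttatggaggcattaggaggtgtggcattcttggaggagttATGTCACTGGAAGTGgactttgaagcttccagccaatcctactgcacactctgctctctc

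The STAT5 motif TTCNNNGAA, searched on both strands, was in 1 of the 10 member windows, that of Hsd3b7, and in 8.30% of all 32851 windows. The antioxidant response core TGACNNNGC and the CCAAT/enhancer-binding protein motif TTGCNNAA were in 0 of the 10, and in 12.4% and 10.8% of all. These are matches of letters in a short window only.

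**Figure D4:**
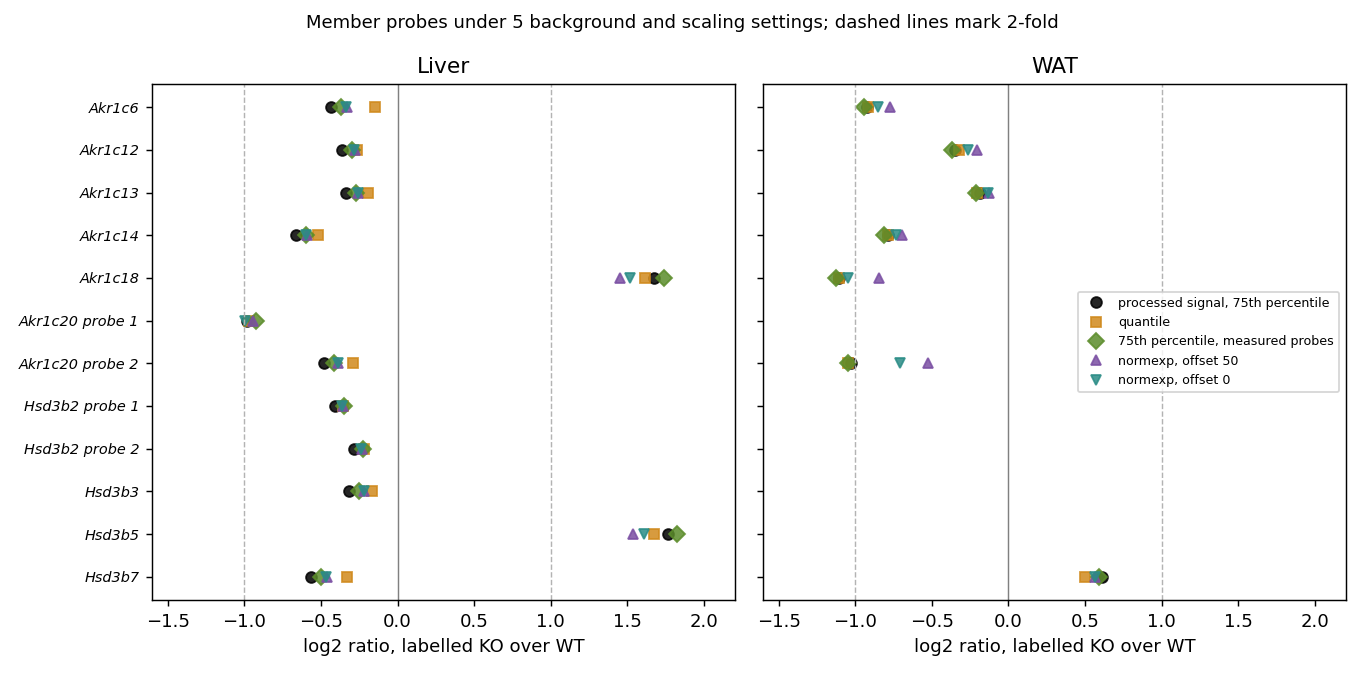
Log2 ratio of labelled knockout over wild type (x axis) for each member probe under 5 settings of background correction and scaling, in liver and WAT. All points keep their side of 0. In WAT the normexp points of the second Akr1c20 probe (-0.53 and -0.70) move inside the dashed 2-fold line. So does the point of Akr1c18 for normexp with an offset of 50 (-0.84).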

How the data were processed

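The authors deposited scanner files whose values are intensities read from each spot by Agilent Feature Extraction 11.0.1.1, per the submitters' processing notes. Per the file headers, these were background-corrected and detrended within each array, with no normalization between arrays. A deposited table held the ratio of each processed signal to 1 constant per array (1764, 1470, 1613 and 1690 for labelled-knockout liver, wild-type liver, labelled-knockout WAT and wild-type WAT), on a linear scale without gene centring. Its column medians were 0.0751, 0.0737, 0.0875 and 0.0876. Labelling began with 200 ng of RNA, per the labels.

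From the deposited intensities, levels were computed as log2 of the processed signal over its 75th percentile among non-control spots of that array. Outlier spots were left out and spots of a probe averaged. A probe counted as measured in a pair when, on both arrays, over 0.5 of its spots passed the background flag and 0 were saturated. The limit for a difference was 2-fold. Alternatives were normexp (limma 3.58.1 in R 4.3.3), quantile normalization, the deposited table, other filters, 1.5-fold and gene summaries. All member probes are named. From each list up to 4 genes with the largest ratios are named, all measured genes for the other Akr and Hsd3b genes, and from markers those detected on every array or on none. Mc2r is named for its share of a marker sum. The Y-linked genes were added after the data were seen. Of 202 list entries, 2 were found by synonym and 9 not at all. Members and lists were chosen with earlier results of these data known. Steps were tested on simulated data. The number of arrays limits the precision.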

Additional observations from a re-analysis of the deposited data

Results flagged for a closer look

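Akr1c18 had log2 ratios of opposite sign in the tissues, 1.68 in liver and -1.11 in WAT, both larger than the scanner software's error of the probe. Its signal was 2813 in labelled-knockout liver and 733 in wild-type liver, and 168 in labelled-knockout WAT and 380 in wild-type WAT. Hsd3b7 had ratios of -0.57 in liver and 0.61 in WAT, again beyond that error on both sides. With 1 array per group the difference between the tissues was not tested. Bright probes as a whole were shifted the same way as Hsd3b7, with medians of -0.14 in liver and 0.16 in WAT above a level of 4, and hepatocyte markers had a median of -0.70 in WAT beside the value of Akr1c18. Their part was not tested.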

How the results depend on the processing

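Of 151 values of single member probes under the alternatives, 0 changed sign and 3 crossed the 2-fold limit. Many of these values repeat the reported ones. Dropping the filter on dim probes, using only probes above the median level and keeping outlier spots left every member ratio unchanged. The deposited table shifted them by at most 0.0004. The 3 crossings were in WAT, Akr1c18 with normexp and an offset of 50 (-0.84) and the second Akr1c20 probe with normexp at an offset of 50 (-0.53) or 0 (-0.70). The count of members 2-fold lower in WAT, 2 as reported, was therefore 0 and 1 with normexp at offsets of 50 and 0, and it was 1 with only probes above the median level and 4 at a limit of 1.5-fold. The median of the members in WAT was -0.53 with normexp at an offset of 50 and -0.45 with no filter on dim probes, against -0.79. At 1.5-fold, 2 member probes were lower in liver in place of 0, and 1 was higher in WAT in place of 0. Without the filter, 11 members in place of 6 were 2-fold higher in liver than in WAT of the labelled knockout. Among all liver probes, the counts at least 2-fold higher and lower (358 and 216) were 132 and 426 with normexp at an offset of 50, 151 and 2792 at an offset of 0, 1297 and 901 without the filter, and 982 and 909 at 1.5-fold. The share of higher among differing liver probes was 62.4% as reported, 23.7% with normexp at an offset of 50 and 5.13% at an offset of 0, and the median of all liver probes was -0.19 with normexp, against -0.04. For liver over WAT in wild type that share was 46.3% as reported, 56.9% and 64.3% with normexp at offsets of 50 and 0, and the median of all probes was 0.25 and 0.26, against -0.02. In WAT the counts of 512 and 461 were 295 and 242 with normexp at an offset of 50, 1212 and 1377 without the filter, and 1558 and 1836 at 1.5-fold, and 310 were higher with only probes above the median level. A lower limit or no filter counts more probes by construction, and the cause of the normexp changes was not tested. The 2 higher members in liver, Hsd3b5 and Akr1c18, stayed past 2-fold under every alternative. No paired analysis was possible because each group has 1 array. Signals near background limit the WAT values of 5 probes.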

Other observations

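Receptors and signalling genes tied to steroid and growth hormone action were read in the same way. In labelled-knockout liver 25 of 30 measured probes of that list were below 0, against 57.1% of all probes. Their median was -0.43, against -0.04 for all probes. At least 2-fold higher were 0, against 1.42% of all liver probes, and 1 was 2-fold lower, against 0.860%. Prlr, the prolactin receptor, had a mean ratio of -0.96, Ghr, the growth hormone receptor, -0.77 and Stat5b, a transcription factor downstream of both, -0.61. Socs2, an inhibitor of growth hormone signalling, was at 0.83 over 3 probes. In WAT 1 of 30 probes was 2-fold higher, against 1.95% of all WAT probes, and 0 were 2-fold lower, against 1.76%. The higher one was Pgr, the progesterone receptor, at 1.01, with dim levels of -4.25 in labelled-knockout WAT and -5.26 in wild-type WAT. Esr1, an oestrogen receptor, was at 0.55 in WAT over 4 probes, and Nr1i3 was at -0.66.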
